A study of Rattus norvegicus with 6 samples.

Results

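The genes described here are 10 regulators that act back on the ERK pathway or carry its signal to other genes. They comprise the dual-specificity phosphatases Dusp4, Dusp5 and Dusp6, the Sprouty genes Spry1, Spry2 and Spry4, the Spred genes Spred1 and Spred2, and the ETS transcription factors Etv4 and Etv5. They were found as the rows of the gene table with these names, out of 32883 annotated genes, together with every row without a gene name that overlapped one of them on the same strand, which gave 16 rows out of 43035. RNA-seq was performed on cardiomyocytes from Sprague-Dawley rats (SD in the labels) of postnatal day 1, grown in primary culture and transfected with scrambled siRNA (si-NC) or with siRNA against the protein kinase DYRK1A (si-DYRK1A). RNA was collected 48 h later, with 3 libraries in each group. Every library thus carried an siRNA and the transfection reagent, and no library of untransfected cells was compared. The cells had been enriched from digested heart tissue by differential attachment, so other cells of the heart can remain in the culture.

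ERK is the last kinase of a cascade that runs from growth factor receptors through Ras, Raf and MEK. Active ERK switches on immediate early genes and also genes that damp the cascade again. Dusp phosphatases remove the activating phosphates from ERK itself, whereas Sprouty and Spred proteins act above it, at the level of Ras and Raf. Etv4 and Etv5 are transcription factors of the PEA3 group that are induced below FGF receptors. In the heart the ERK pathway is known for its part in cardiomyocyte growth, and the comparison asks how the mRNA of its feedback genes stood when DYRK1A had been targeted.

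Counts per library ranged from 10325074 to 11921772 in si-NC and from 10703229 to 11723974 in si-DYRK1A. Of 15513 rows that passed the filter on low counts, 2360 differed between the groups (15.2%; edgeR's quasi-likelihood test, Benjamini-Hochberg adjusted p below 0.05). Of these, 1245 were higher in si-DYRK1A (8.03% of the rows tested) and 1115 lower (7.19%), and with scaling by library size alone the split was 1063 and 1339. Libraries of one group differed from each other by more than counting error, with a chi-square per degree of freedom of 2.65 to 6.48. Nothing in the labels says whether the libraries of a group came from separate cultures or animals, so the p-values measure the spread between these samples, which may be technical. The targeted gene did not check the labels. Its annotated row held 0 to 3 counts per library, and the unannotated row over Dyrk1a stood at 77.7 ± 3.22 CPM (counts scaled to the library size after TMM normalization) in si-NC and 82.4 ± 2.70 CPM in si-DYRK1A (SD, n = 3 each; edgeR log2 fold change 0.08, adjusted p = 0.374). The groups are therefore named by their labels throughout.

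Among the feedback regulators, Spry4 rose and Dusp5 fell in si-DYRK1A, and no other row passed the test. In all, 9 of the 16 rows were tested, 6 annotated and 3 unannotated, and these covered 8 of the 10 genes. The 2 rows called are 22.2% of the 9, beside 15.2% of all rows tested, and they moved in opposite directions. Fold changes were positive in 4 rows and negative in 5, with a median of -0.03 on the log2 scale, beside 0.00 over all rows tested. In 3 of the 9 rows the libraries of the groups did not overlap, beside 31.5% of all rows tested. The summed level of the 10 annotated rows ran from 399.8 to 417.8 CPM in si-NC and from 406.1 to 416.5 CPM in si-DYRK1A. Of these 10 rows 4 were at 0 in every library, and the unannotated rows were not part of the sum.

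**Figure D1:**
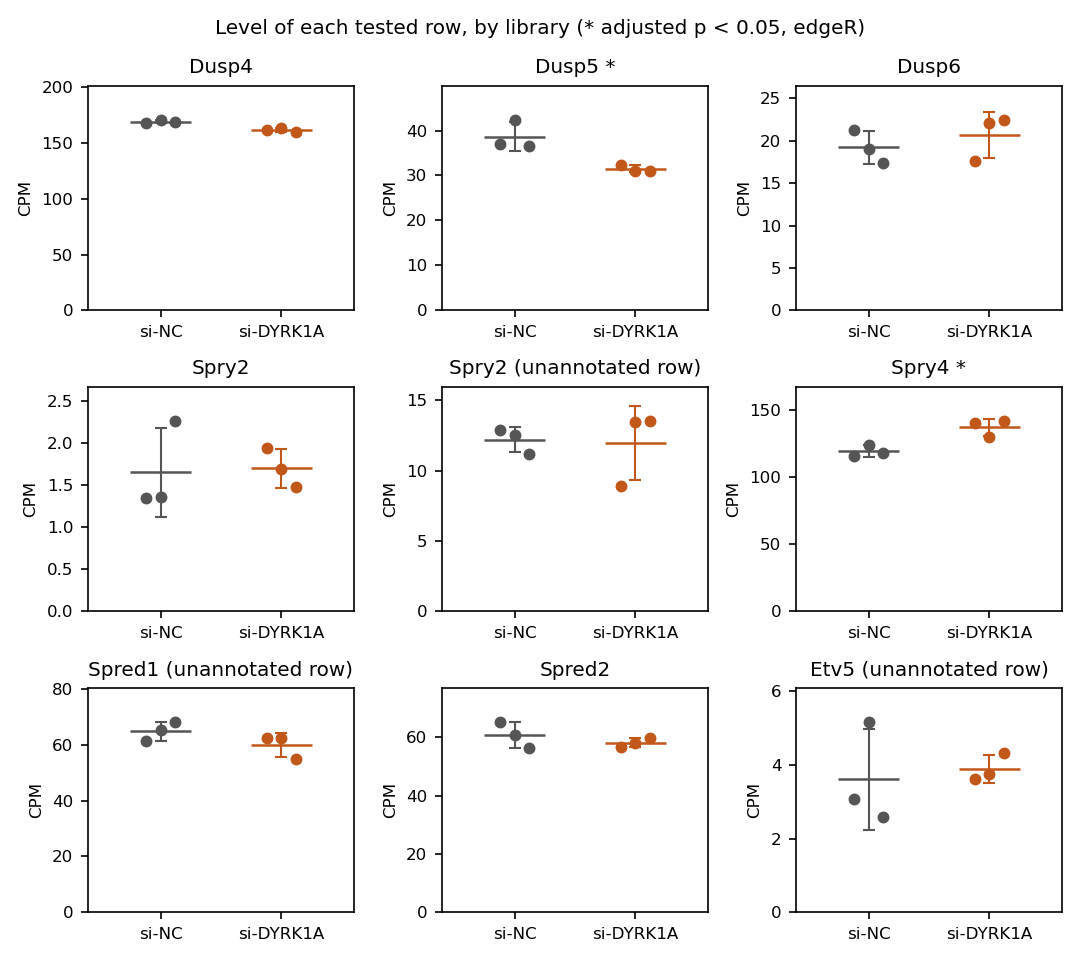
CPM of the 9 rows tested (vertical axes, each from 0), with 1 point per library, the mean as a line and the SD as a bar, n = 3 per group. An asterisk marks the 2 rows that passed the test: Spry4, where the 3 si-DYRK1A libraries lie above all si-NC libraries, and Dusp5, where they lie below.

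Spry4 belongs to the Sprouty proteins, which bind adaptors and Raf and so limit the activation of ERK by receptor tyrosine kinases. It is listed as ENSRNOG00000013851 at chr18:32594958-32609864 of Rnor_6.0, on the plus strand. Its level was 115.3, 123.8 and 118.0 CPM in si-NC 1, 2 and 3, and 139.9, 129.9 and 141.4 CPM in si-DYRK1A 1, 2 and 3. All si-DYRK1A libraries were above all si-NC libraries, the nearest being si-NC 2 and si-DYRK1A 2. The group means were 119 ± 4.33 and 137 ± 6.29 CPM (SD, n = 3 each), an increase of 15.1%. This was a log2 fold change of 0.20 (SE 0.0515, 95% interval 0.10 to 0.31, edgeR adjusted p = 0.00885). Among all rows tested, Spry4 ranked 1275 by p. With DESeq2, which called 13% of the rows to which it gave an adjusted p, Spry4 was also called. The call was lost when si-NC 1 was left out (adjusted p = 0.0604), when si-DYRK1A 3 was left out (0.0637) and in limma fits on FPKM (0.0787 to 0.12), with the log2 fold change between 0.18 and 0.24 in all alternatives run.

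The start of Spry4 faces another gene. RefSeq places Spry4 on the minus strand of chromosome 18 in GRCr8 and Arhgap26 on the other strand, and the sequence between their starts is printed as the promoter of a gene that rose. Capitals mark the core of the site of the transcription factor NRF1, as searched, which begins 48 bases before the Spry4 start.
Spry4, chr18:30702547-30702601 of GRCr8, minus strand: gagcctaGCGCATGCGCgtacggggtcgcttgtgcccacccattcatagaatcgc
Of 33469 RefSeq windows of the 250 bases before a gene start, 0.762% held this core on either strand. Of the 8 feedback regulators with a window, only Spry4 held it. The core was chosen after the sequences had been seen, so its rarity describes the letters only. In the count table, whose build gives Spry4 the plus strand, an unannotated row on the minus strand lay next to its start, with 35 bases between them. It stood at 26.3 ± 2.04 CPM in si-NC and 23.6 ± 1.22 CPM in si-DYRK1A (SD, n = 3 each), with overlapping libraries. Its log2 fold change was -0.16 (SE 0.0926, edgeR adjusted p = 0.295), of opposite sign to that of Spry4 and short of the threshold.

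Dusp5 is a nuclear phosphatase that is specific for ERK and is itself induced by it. It is listed as ENSRNOG00000014061 at chr1:274245184-274258595 of Rnor_6.0, on the plus strand. Its level was 36.9, 42.3 and 36.6 CPM in si-NC 1, 2 and 3, and 32.4, 31.1 and 31.0 CPM in si-DYRK1A 1, 2 and 3. The groups did not overlap, and si-NC 2 stood above every other library. Dusp5 fell by 18.5%, from 38.6 ± 3.19 to 31.5 ± 0.773 CPM (SD, n = 3 each). On the log2 scale the fold change was -0.30 (SE 0.0819, 95% interval -0.47 to -0.12, edgeR adjusted p = 0.0165), and Dusp5 ranked 1546 by p. The call depended on single libraries and on the tool. Without si-NC 2 the log2 fold change was -0.23 (edgeR adjusted p = 0.0862), and the call was also lost without si-DYRK1A 2 (0.0644) or si-DYRK1A 3 (0.0632). DESeq2 gave an adjusted p of 0.0522 and the limma fits on FPKM gave 0.0611 to 0.0997. In every alternative run the log2 fold change stayed negative, between -0.34 and -0.23.

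The promoter of Dusp5 is shown because it holds a pair of adjacent CArG boxes, the sequence that serum response factor binds. The window is the 250 bases before the RefSeq start, and capitals mark the boxes, which begin 82 and 72 bases before that start.
Dusp5, chr1:262543524-262543773 of GRCr8, plus strand: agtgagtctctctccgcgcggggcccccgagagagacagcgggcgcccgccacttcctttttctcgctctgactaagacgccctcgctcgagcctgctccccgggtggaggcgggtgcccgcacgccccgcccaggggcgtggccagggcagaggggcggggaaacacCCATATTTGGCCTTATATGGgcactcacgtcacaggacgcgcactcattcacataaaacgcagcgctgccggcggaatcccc
A CArG box on either strand was found in 1.5% of the 33469 windows. RefSeq gave windows for 8 of the 10 genes, 9 windows in all because Spry2 has more than one start, and Dusp5 was the only gene among them with a CArG box. Srf, which encodes serum response factor, rose from 54.3 ± 0.516 to 70.7 ± 8.63 CPM (SD, n = 3 each; log2 fold change 0.38, edgeR adjusted p = 0.00161), and was singled out here after its value had been seen. The ETS letters CCGGAA were in 2 of the 9 windows, those of Spry4 and Spry2, and in 12.6% of all windows. The PEA3 letters AGGAAG were in 3, those of Dusp5, Dusp6 and Spred2, and in 29.5% of all. The letters TGACG of the cyclic AMP response element were in 3, those of Dusp5, Spred2 and Spry2, and in 18.2% of all. The AP-1 letters TGANTCA were in none of the 9 and in 6.34% of all. Each motif was searched on both strands, and matches were counted whether or not they overlapped another. The motifs were chosen after the sequences had been seen, and a match describes the letters only.

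Dusp4 and Dusp6 are phosphatases of the same family as Dusp5. Dusp4 acts in the nucleus, as Dusp5 does, and Dusp6 in the cytoplasm. Dusp4, at chr16:61078175-61091169 on the minus strand, had the most even level of all the members. Its level was 168.0, 170.5 and 169.1 CPM in si-NC 1, 2 and 3, and 161.6, 163.3 and 160.4 CPM in si-DYRK1A 1, 2 and 3. The libraries did not overlap, yet the difference was small beside the spread estimated across all genes. The log2 fold change was -0.07 (SE 0.0449, 95% interval -0.16 to 0.03, edgeR adjusted p = 0.378), and no alternative run brought it past the threshold. Dusp6, at chr7:41475163-41479392 on the plus strand, was at 21.3, 19.0 and 17.4 CPM in si-NC and 17.6, 22 and 22.4 CPM in si-DYRK1A, in the order 1, 2 and 3. Here the groups overlapped, with si-DYRK1A 1 lying among the si-NC libraries. The log2 fold change was 0.11 (SE 0.112, 95% interval -0.13 to 0.34, edgeR adjusted p = 0.596). The 3 phosphatases thus had log2 fold changes of -0.30, -0.07 and 0.11, and whether they differed from each other was not tested.

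Spred1 and Spred2 bind Ras and bring neurofibromin, a GTPase-activating protein for Ras, to the membrane. For Spred1 the annotated row was at 0 in every library, while an unannotated row that spans the gene from the same start, at chr3:108795235-108861704 on the plus strand, held all 4226 counts of the locus. That row stood at 61.3, 65.2 and 68.0 CPM in si-NC 1, 2 and 3 and at 62.4, 62.3 and 54.7 CPM in si-DYRK1A 1, 2 and 3. The groups overlapped, and si-DYRK1A 3 was the lowest library. Its log2 fold change of -0.12 did not pass the test (SE 0.0691, 95% interval -0.26 to 0.03, edgeR adjusted p = 0.290). Spred2, at chr14:104191517-104290456 on the plus strand, was at 65.2, 60.9 and 56.4 CPM in si-NC and 56.6, 58.1 and 59.9 CPM in si-DYRK1A. The si-DYRK1A libraries lay within the range of the si-NC libraries, and the log2 fold change was -0.06 (SE 0.0680, 95% interval -0.20 to 0.08, edgeR adjusted p = 0.606).

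Spry1 and Spry2 are the relatives of Spry4 that are known as feedback inhibitors of FGF signals in many organs. Spry1, at chr2:124400679-124405331 on the plus strand, could not be assessed, since its annotated row and the unannotated row of nearly the same span were both at 0 in every library. Spry2, at chr15:90172975-90175802 on the minus strand, had 14 to 27 counts in its annotated row, and an unannotated row that reaches 2046 bases further upstream held 87.7% of the 930 counts of the locus. The unannotated row was at 12.8, 12.5 and 11.2 CPM in si-NC and at 8.88, 13.5 and 13.5 CPM in si-DYRK1A. The low library was si-DYRK1A 1, and the other 2 stood above all si-NC libraries. The log2 fold change was -0.03 (SE 0.150, 95% interval -0.34 to 0.28, edgeR adjusted p = 0.933) in the unannotated row and 0.03 (SE 0.337, 95% interval -0.67 to 0.73, adjusted p = 0.966) in the annotated one. Both rows lie inside the span that the table gives to Mycbp2 on the same strand. The sign of the fold change turned in both rows when single libraries were left out, and a log2 fold change of the size seen in Spry4 lies within both intervals.

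**Figure D2:**
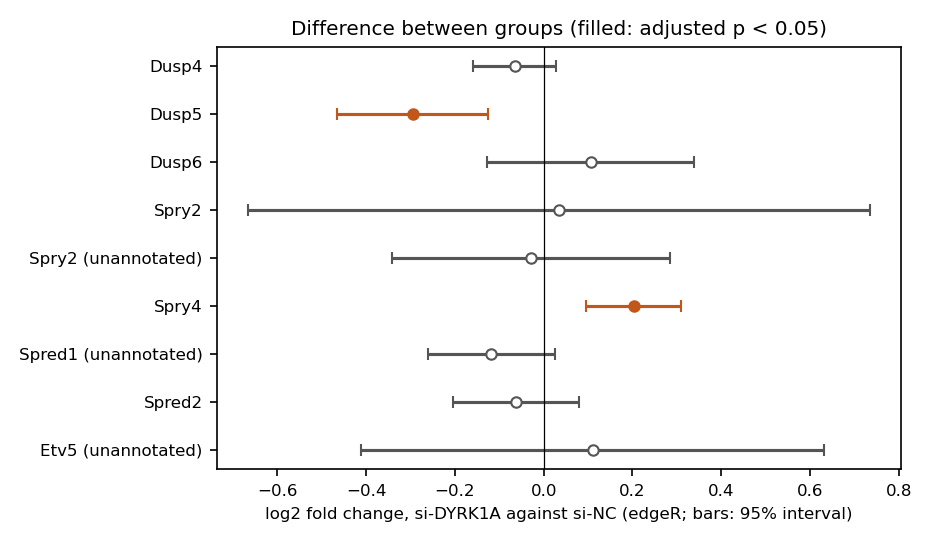
The log2 fold change of si-DYRK1A against si-NC (horizontal axis) for the 9 rows tested, with bars for the 95% interval, n = 3 per group, and filled points for an adjusted p below 0.05. The intervals of Spry4 and Dusp5 lie on opposite sides of 0, and those of the other 7 rows include 0.

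The PEA3 factors were scarce in the table. For Etv5, at chr11:82194657-82252139 on the plus strand, the annotated row was at 0 and an unannotated row of exactly the same span held all 255 counts of the locus, 31 to 61 per library. Its level was 3.07, 5.16 and 2.59 CPM in si-NC 1, 2 and 3 and 3.61, 3.77 and 4.33 CPM in si-DYRK1A 1, 2 and 3. The si-DYRK1A libraries fell inside the range of si-NC, whose libraries 2 and 3 were the highest and the lowest of all. With a log2 fold change of 0.11 it did not pass the test (SE 0.251, 95% interval -0.41 to 0.63, edgeR adjusted p = 0.829). For Etv4, at chr10:89685058-89700283 on the minus strand, an unannotated row held 1 to 4 counts per library, 16 in all, which was too few for a test.

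The rows at 0 have to be read with the way the table splits a locus. The annotated rows of Spry1, Spred1, Etv4 and Etv5 were at 0 in every library, and each of these 4 genes was covered by an unannotated row on its strand. Of 6885 protein-coding genes that such a row covered by at least 50%, 77.2% had fewer than 10 counts in every library, against 45.4% of 15365 genes not so covered. Where both ends of the unannotated row were within 5 bases of the gene, as for Spry1, Dusp6, Etv4 and Etv5, 86.6% of 1004 genes were under 10 counts, and in 55.7% both rows were. A row at 0 in this table therefore does not show that the mRNA was absent. When each gene was summed with the unannotated row on its strand and the fit was repeated, 15.6% of all loci were called, and Spry4 and Dusp5 stayed the only members called. The summed log2 fold changes were -0.12 for Spred1 (edgeR adjusted p = 0.265), 0.10 for Etv5 (0.840) and 0.10 for Dusp6 (0.611). In a sum that ignored gene models over 1 Mb, so that Spry2 could be joined despite Mycbp2, Spry2 had -0.02 (SE 0.132, adjusted p = 0.933).

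Per length, and as counted in this table, the phosphatase Dusp4 stood highest of the feedback regulators and Etv5 lowest of those tested. Levels are given as FPKM, the deposited values scaled by transcript length and library, averaged over the 6 libraries of both groups. Dusp4 was at 41.3 ± 1.16 FPKM, Spred2 at 34.8 ± 1.92 and Spry4 at 26.7 ± 2.25 (SD, n = 6 each). Dusp5 followed at 14.4 ± 1.85, Spred1 (unannotated row) at 10.3 ± 0.757 and Dusp6 at 7.19 ± 0.799. Spry2 (unannotated row) was at 5.62 ± 0.825 and Etv5 (unannotated row) at 0.583 ± 0.142. The ranges of neighbours in this order did not overlap over the 6 libraries. Dusp6 and Spry2 came close, with 6.28 FPKM for the lowest library of the former and 6.27 FPKM for the highest of the latter. This describes the spread between libraries and not the choice of gene model. The length used for an unannotated row is that of the assembled transcript. For Spred1 it is 6009 bases against 1635 for the annotated gene, so its FPKM and its place in the order depend on the model taken. In CPM, Spred1 (unannotated row) and Spred2 were close, at 64.8 ± 3.37 and 60.8 ± 4.38 in si-NC (SD, n = 3 each). Dusp6 and Etv5 share their ends with an unannotated row, the class in which most genes had few counts. Their FPKM may therefore be too low.

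**Figure D3:**
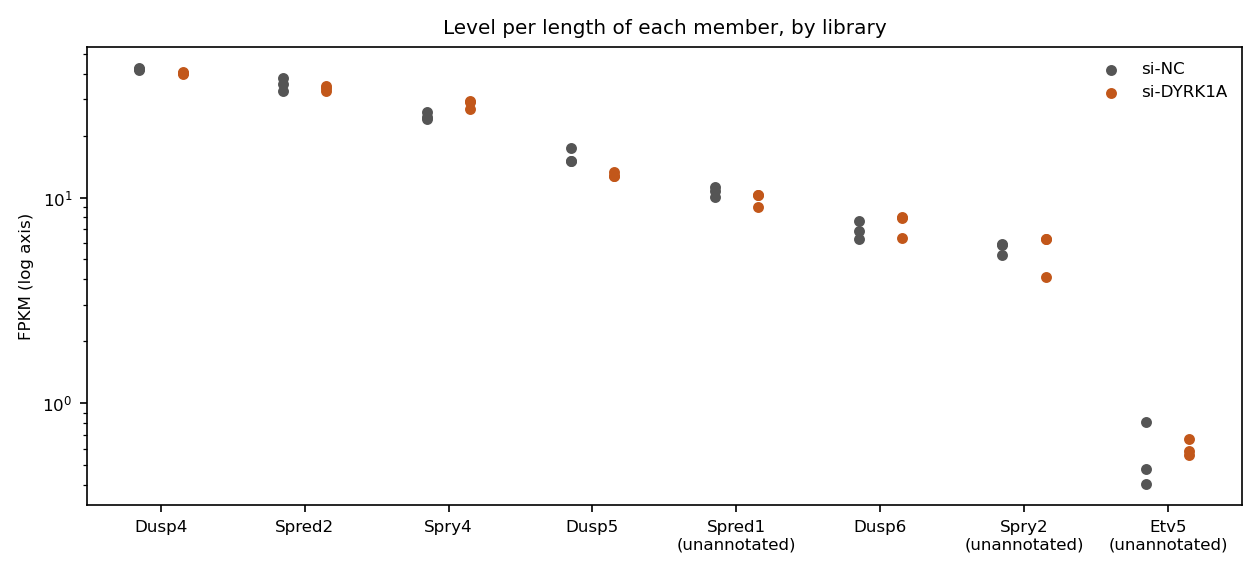
FPKM of the 8 members with a tested row (log vertical axis), 1 point per library, si-NC and si-DYRK1A side by side, in order of the mean over all libraries. The levels run from 41.3 FPKM for Dusp4 to 0.583 FPKM for Etv5. With the gene models used, the ranges of neighbouring members do not overlap.

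Many genes correlated over the libraries with Dusp4, the member with the highest CPM. Over the 6 libraries, which share their depth and group with every gene, the genes with the pattern most like Dusp4 on the log2 CPM scale were the drug efflux transporter Abcb1a (Pearson r = 0.996), the biliverdin reductase Blvra (0.995) and Sh3bgrl3 (0.995), out of 9681 annotated genes compared. A correlation takes no account of the size of a change. These genes were called lower in si-DYRK1A, with log2 fold changes of -0.50 (Abcb1a, edgeR adjusted p = 4.42e-05), -0.41 (Blvra, 0.000443) and -0.37 (Sh3bgrl3, 4.56e-05). Dusp4 had -0.07 and was not called. As many as 533 genes had an r of at least 0.9, and with 6 libraries in 2 groups this is a description only.

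The genes that send the signal to these regulators were described by a list of the ERK cascade. Of 27 genes from Ras exchange factors to the ribosomal S6 kinases, only 9 had a testable annotated row and 16 were at 0 in every library, among them Mapk3, a gene for ERK, and the MEK genes Map2k1 and Map2k2. Among the 9, 1 gene fell and none rose, beside 15.2% of all rows called, with a median log2 fold change of -0.08. That gene was Sos1, an exchange factor that activates Ras, which went from 105.6 ± 2.70 to 94.4 ± 3.18 CPM (SD, n = 3 each; log2 fold change -0.16, edgeR adjusted p = 0.0358) and lost the call in 10 of 19 alternatives. In the locus sums 20 of the 27 could be tested. Of these 20, 2 were called lower and none higher, beside 15.6% of all loci called. They were Sos1 and Nf1, which encodes neurofibromin (log2 fold change of Nf1 -0.24, edgeR adjusted p = 0.0412). Nf1 is named because it was called in the sums, after its value had been seen. Mapk3, Map2k1 and Map2k2 remained at 0 or 1 count per library even in the sums.

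The list of FGF family genes and receptors, not all of which act upstream of the cascade, held genes with larger fold changes than any feedback regulator. Of 16 genes 10 were tested, with 2 higher and 1 lower, beside 15.2% of all rows called, and the median log2 fold change was 0.06. Fgf12, an intracellular FGF-like protein that binds sodium channels, rose from 15.2 ± 0.682 to 22.4 ± 0.348 CPM (log2 fold change 0.56, edgeR adjusted p = 0.000382). Fgf10, a secreted ligand, rose from 15.1 ± 1.24 to 21.8 ± 2.49 CPM (0.53, adjusted p = 0.00193), a call that was lost in the limma fits on FPKM (adjusted p = 0.0522 to 0.0964). Fgf21, an endocrine ligand with 13 to 53 counts per library, fell from 3.76 ± 0.596 to 1.46 ± 0.278 CPM (-1.36, edgeR adjusted p = 0.00155). Levels of these genes are means ± SD, n = 3 each. The receptors were mostly hidden in unannotated rows. In the locus sums 13 genes of the list were tested, with 2 higher and 3 lower, beside 15.6% of all loci called. Fgfr1 fell (-0.21, edgeR adjusted p = 0.0178) and so did Fgfr3 (-0.37, adjusted p = 0.0239), both named after their values had been seen. The annotated row of Fgfr3 alone did not differ (-0.09, edgeR adjusted p = 0.908). Fgfr4 (-0.38, edgeR adjusted p = 0.216) and Fgfrl1 (0.82, adjusted p = 0.0921) were not called in the sums.

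A further list held other genes known to follow or restrain ERK. Of 26 genes 16 were tested, and 1 was higher and 2 were lower, a share near the 15.2% of all rows called. The median log2 fold change was 0.01. Dusp14, an atypical phosphatase of the same family as the members above, fell from 17.3 ± 0.866 to 11.95 ± 0.01 CPM (SD, n = 3 each; log2 fold change -0.53, edgeR adjusted p = 0.00189). The ephrin receptor Epha2 fell by less (-0.16, adjusted p = 0.0219), a call that was lost in 8 of 19 alternatives. Its relative Epha4 rose from 26.2 ± 1.91 to 39.4 ± 2.66 CPM (SD, n = 3 each; 0.59, edgeR adjusted p = 5.07e-05). Dusp1, which encodes an ERK, JNK and p38 phosphatase, had 57 to 106 counts in the locus sums and a log2 fold change of -0.03 (adjusted p = 0.944).

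Most of the immediate early genes tested, which ERK also induces, differed between the groups. Of 22 genes 15 were tested, and 10 were called (7 lower, 3 higher), beside 15.2% of all rows tested. The median log2 fold change was -0.21. Egr1, a zinc finger factor and a sensitive target of ERK, fell from 747.7 ± 22.8 to 375.4 ± 22.9 CPM (SD, n = 3 each; log2 fold change -0.99, edgeR adjusted p = 7.2e-12). Klf6 (-0.38), Jun (-0.36), Zfp36 (-0.42) and Egr3 (-0.63) fell as well, whereas Ier5 rose (0.28), with edgeR adjusted p between 1.36e-05 and 0.000281. In the locus sums 19 were tested, with 9 lower and 3 higher, beside 15.6% of all loci called. Only the sums could test 4 of them. Of these, Fos (-0.69, edgeR adjusted p = 0.000159) and Klf2 (-1.72, 6.56e-09), both chosen after their values had been seen, fell too. Nr4a1 (0.39, 0.352) and Nr4a2 (0.27, 0.443) had the opposite sign and were not called. The largest fold change among the members, that of Dusp5, was smaller in size than that of each called gene named here except Ier5. The difference in the share of calls between the lists was not tested, and all lists were read from the same libraries.

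**Figure D4:**
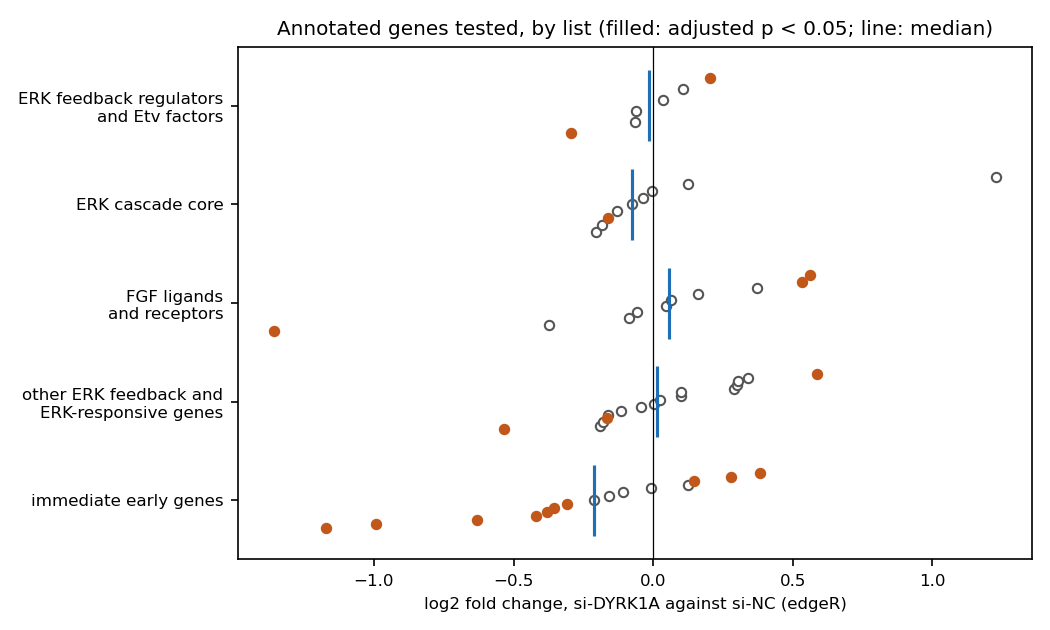
The log2 fold change of si-DYRK1A against si-NC (horizontal axis) for each annotated gene tested in 5 lists, 1 point per gene, filled for an adjusted p below 0.05, with the list median as a blue line. The annotated feedback regulators lie between -0.30 and 0.20, while immediate early genes reach -1.17. Of the 15 immediate early genes tested, 7 were called lower and 3 higher, beside 7.19% and 8.03% of all rows tested.

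Markers of the cell types that such a culture can hold were read from the same fit, in which 15.2% of all rows were called. In bulk cultures, fewer cells of a type and less RNA per cell cannot be told apart. The cardiomyocyte markers summed to 20133 to 20840 CPM in si-NC and 23464 to 24303 CPM in si-DYRK1A, led by Actc1, with 3 of 5 tested higher and none lower. The largest step in CPM was that of the natriuretic peptide gene Nppa, from 7557 ± 371 to 9782 ± 475. Actc1 went from 9976 ± 92.5 to 10880 ± 192 CPM and Actn2 from 1359 ± 84.9 to 1679 ± 33.4 CPM (SD, n = 3 each). Tnnc1 (log2 fold change 0.04, edgeR adjusted p = 0.592) and Tnnt2 (-0.14, 0.595) were not called. The annotated rows of the defining genes Myh6, Myh7, Tnni3 and Myl2 were at 0 in every library. Endothelial markers, led by Tek, summed to 195.9 to 216.8 CPM and 167.0 to 175.8 CPM, with 3 of 8 lower and none higher. Fibroblast markers, led by Col1a1, summed to 21531 to 26245 CPM and 20368 to 21107 CPM, with 2 of 6 higher and none lower, so the sum and the calls differed in direction. Smooth muscle and pericyte markers, led by Des, summed to 2834 to 3079 CPM and 2660 to 2796 CPM. Of 4 tested, 1 was lower and none higher. The lower gene was Des itself, which cardiomyocytes also express and which made up most of the sum. It went from 2259 ± 107 to 2031 ± 69.7 CPM (SD, n = 3 each, log2 fold change -0.15, edgeR adjusted p = 0.0161). In the locus sums, where 15.6% of all loci were called, 1 of 5 was lower and 1 higher. The higher gene was the pericyte gene Rgs5 (log2 fold change 0.56, edgeR adjusted p = 1.07e-05), named after its value had been seen. Macrophage markers, led by Lyz2, overlapped between the groups at 280.9 to 297.2 CPM and 283.3 to 328.6 CPM, with 2 of 8 higher and none lower. The part of these markers in the values of Spry4, Dusp5 and the other members was not tested.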

How the data were processed

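RNA-seq data of neonatal rat cardiomyocytes were used, with groups and replicate numbers from the sample labels (3 libraries of si-NC and 3 of si-DYRK1A). The methods name HISAT2 and Rnor_6.0 for the mapping, and the authors deposited raw counts per gene. Genes were accompanied by unannotated assembled transcripts, and FPKM values were deposited by the authors as well. The submitters' processing notes name Bowtie 0.12.2 and the mouse build mm8, which go against the rat identifiers of the table. The labels name a TruSeq kit and the methods a NEBNext kit. The counter, the annotation release and whether strand was used were not given in the sources used here.

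Counts were tested with edgeR 4.0.16 in R 4.3.3 (quasi-likelihood test, robust fit, TMM, filterByExpr with a minimum count of 10 and a total of 15), two-sided, with Benjamini-Hochberg adjustment over all rows tested and a threshold of 0.05. The biological coefficient of variation was 8.82%. CPM values used the TMM-scaled library sizes. FPKM levels were read as deposited. Intervals are 95% intervals of the fit.

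Alternatives were tried with upper-quartile, RLE or no normalization factors, without a filter, with at least 10 counts in every library, with DESeq2 1.42.0, limma-voom and limma 3.58.1 on log2(FPKM + 1) or log2(FPKM + 0.1) with FPKM above 0.5 in 3 libraries, the former also without that filter, with each library left out, with the replicate numbers as a block, and on sums of a gene with the unannotated rows on its strand that overlap no other gene and span 50% or more of it (GenomicRanges 1.54.1). A version of the sums that ignores gene models over 1 Mb was added after seeing the data. Scripts were tested on simulated counts.

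The genes named were the 10 members with the unannotated rows on their strand, Dyrk1a, Egr1, Mapk3, Map2k1 and Map2k2, up to 6 called genes of each list with the smallest p, the marker with the highest CPM of each list, and the 3 genes most like the member of the highest CPM. Some single genes are not reported here. The members and lists were chosen with earlier results of these data known. Promoter windows are RefSeq's for GRCr8, not the build of the count table, and Dusp4 and Etv4 were not matched to one.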

Additional observations from a re-analysis of the deposited data

How the results depend on the processing

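Compared with the 2360 rows and 2 members called, limma called 1197 rows on log2(FPKM + 1), 1162 on log2(FPKM + 0.1) and 667 on log2(FPKM + 1) without a filter, and 0, 0 and 0 members (2, 2 and 3 with an unadjusted p under 0.05, against 2 in edgeR). DESeq2 called 1575 rows, 823 of them higher, and 1 member, Spry4. Leaving out single libraries gave 1614 to 2210 rows and 0 to 2 members. Of the genes in all pathway and marker lists but the members', 28 were called, in a fit that called 15.2% of all rows tested. The numbers tested in each list are given above. In the locus sums 35 were called, beside 15.6% of all loci. The count was 18 on log2(FPKM + 0.1), 13 without its filter on log2(FPKM + 1), and 21 to 31 with single libraries left out. Over 22 genes and rows and up to 19 alternatives, 373 of 413 values kept their direction and their side of the threshold, 33 lost a call and 7 changed sign. The sign changes were in the rows of Spry2 and Etv5 and in no call. Spry2 had a log2 fold change of -0.025 in the sums that ignored gene models over 1 Mb. With libraries left out its annotated row ran from -0.098 to 0.32, its unannotated row from -0.13 to 0.15 and that of Etv5 from -0.093 to 0.46. The causes were not tested. Libraries with the same replicate number did not deviate together (r = 0.0578, -0.0261 and -0.00409), and not every library correlated best with its own number. With the replicate number as a block 2269 rows and 2 members were called. Sos1 was not (edgeR adjusted p = 0.0618). Depth limits the annotated row of Spry2 (14 to 27 counts per library) and the unannotated rows of Etv4 (1 to 4) and Etv5 (31 to 61).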
